A study of Caenorhabditis elegans with 2 samples.

Results

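The microRNA genes of Caenorhabditis elegans other than the mir-51 family were examined for peaks of TBX-37, a transcription factor of the T-box class that is made in the early embryo. They were every gene of biotype miRNA in the Ensembl release 115 annotation of the WBcel235 genome, with mir-51 to mir-56 and lsy-6 left out. This gave 254 of the 261 annotated microRNA genes, among 46926 annotated genes of all kinds. The 254 hairpins lie at 217 loci when hairpins within 1000 bp of each other are counted once, and 58 of them share 21 of these loci. For each gene, peak summits within 1000 bp of the hairpin were sought in the authors' conservative list, and the strongest candidate within 1000 bp was taken from the ranked lists. The rule itself uses the annotation and no measured value.

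The data are chromatin immunoprecipitation sequencing of whole early embryos at an age of 0 hours, synchronized by egg bleaching, in 1 group of 2 biological replicates. All embryos came from 1 strain, RW12282, whose tbx-37 gene on chromosome III carries a CRISPR insertion of TY1, EGFP and 3xFLAG, and the antibody was against GFP. TBX-37 is known to act in descendants of the ABa blastomere, so cells that hold it are mixed with cells that do not. A weak signal from many cells and a strong signal from few cells cannot be told apart. No second condition was sampled, so no test over samples could be made, and all shares and medians here are descriptions.

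MicroRNAs are short RNAs cut from hairpin transcripts that repress messenger RNAs, chosen mainly by pairing with bases 2 to 8 of the microRNA, the seed. In the worm, the mir-35 family is supplied by the mother and made again in the early embryo, and embryos that lack the whole family die. The let-7 family and lin-4 time larval development, mir-1 is a muscle microRNA and mir-124 a microRNA of sensory neurons. Many microRNA genes lie in introns or in clusters that are transcribed together.

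The early embryonic genes are 10, at 2 loci on chromosome II, and their 3p arms are shown because the comparison of early embryonic genes with the others turns on them. Sequences were read from the RefSeq WBcel235 genome at the Ensembl coordinates of the mature arms, 5′ to 3′, with the seed in capitals. The 8 members of the mir-35 family share the seed CACCGGG, mir-43 and mir-44 do not.
mir-35 3p: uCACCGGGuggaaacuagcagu
mir-36 3p: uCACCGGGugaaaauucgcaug
mir-37 3p: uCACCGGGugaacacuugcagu
mir-38 3p: uCACCGGGagaaaaacuggagu
mir-39 3p: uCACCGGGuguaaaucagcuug
mir-40 3p: uCACCGGGuguacaucagcuaa
mir-41 3p: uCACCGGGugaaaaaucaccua
mir-42 3p: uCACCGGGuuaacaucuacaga
mir-43 3p: uAUCACAGuuuacuugcugucgc
mir-44 3p: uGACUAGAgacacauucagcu

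The other arms shown are those of genes that the results below name most: mir-4923a and mir-4921 beside the strongest conservative peak, mir-5549 whose hairpin a peak overlaps, mir-62 and mir-392 with single peaks, and mir-249 and mir-58a, whose strong candidates are not in the conservative list. Capitals again mark the seed. Apart from mir-62, none of these seeds is shared with another of the 254 genes.
mir-4923a 3p: aAAAGAGAgccuuuuguuuacag
mir-4921 3p: uGUGCCACucacuuucuugcag
mir-5549 5p: cUUGUGAAauuaacgugagu
mir-62 3p: uGAUAUGUaaucuagcuuacag
mir-392 3p: uAUCAUCGaucacgugugauga
mir-249 3p: uCACAGGAcuuuugagcguugcc
mir-58a 3p: uGAGAUCGuucaguacggcaau

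Few microRNA genes had a conservative summit nearby. A summit lay within 1000 bp of 13 of the 254 genes (5.12%), at 10 of 217 loci (4.61%), against 2.2% of 1055499 hairpin-length windows along the genome and 4.55% of 19973 protein-coding gene starts. The share of the microRNA genes was thus above that of genome windows and close to that of protein-coding starts. Other small RNA classes were set beside them under the same distance. A summit was near 46.6% of tRNA genes, 21.7% of snoRNA genes, 10.1% of snRNA genes and 0.677% of piRNA genes, near 0 of 20 rRNA genes, and near 6 of 6 genes of the mir-51 family, while genes of the biotype ncRNA had 5.58%. The share of the microRNA genes was thus close to that of ncRNA genes, below those of tRNA, snoRNA and snRNA genes and above those of piRNA and rRNA genes.

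The replicates on their own gave fewer. In the own list of replicate 1, 5 of the 254 genes (1.97%) had a summit within 1000 bp, against 1.1% of genome windows. In that of replicate 2 there were 8 genes (3.15%), against 1.65% of windows. In the other series-wide list, which the authors also made from both replicates, there were 15 genes (5.91%), against 2.06% of windows. The share of microRNA genes was above that of windows in each list, and 3 genes had a summit in the own lists of both replicates, namely mir-5549, mir-4921 and mir-4923a. Of the 13 genes with a conservative summit, 7 had none in either own list, and 10 had one in the other series-wide list.

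The strength of a candidate is given as its signal value, the score that the authors' peak caller wrote, whose scale differs between lists, and as its percentile, the share of candidates in its own list at or below its signal. The 11 conservative peaks near microRNA genes had signal values of 17.6 to 190, with a median of 83.7, against a median of 104 over all 1107 conservative peaks. Of the 11, 10 carried the highest score of 1000, as did 871 of the 1107. In signal, 9 of the 11 lay below the median of the list, so most were among its weaker peaks.

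The strongest of these peaks stood beside mir-4923a and mir-4921, a pair of hairpins on the X chromosome. The peak at X:1880748–1881003 had a signal value of 190 in the series-wide list, 79.6 in replicate 1 and 112 in replicate 2, which put it at percentile 99.6 series-wide, 99.4 in replicate 1 and 99.3 in replicate 2. Its summit lay 838 bp downstream of mir-4921 and 940 bp downstream of mir-4923a, and inside a tRNA gene, WBGene00023185. The next protein-coding start, that of B0294.3, was 11311 bp away. The 121 bases around the summit, X:1880816–1880936 on the plus strand, are shown because the tRNA gene, on the minus strand, fills 72 of them, in capitals.
summit near mir-4923a: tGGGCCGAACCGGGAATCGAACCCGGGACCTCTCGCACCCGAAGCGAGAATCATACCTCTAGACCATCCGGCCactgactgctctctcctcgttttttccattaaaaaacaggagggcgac

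The peak nearest to a hairpin was that of mir-5549, at III:6971997–6972252, and it was the single conservative peak that overlapped a microRNA gene. Its signal value was 120 in the series-wide list, 41.9 in replicate 1 and 82.8 in replicate 2, at percentiles 99.1, 98.3 and 98.9. The summit lay 40 bp upstream of the hairpin's 5′ end (III:6971976–6972085, minus strand). It also lay 128 bp from the start of rfc-4, which encodes a subunit of replication factor C, the loader of the DNA polymerase clamp. The 121 bases around it, III:6972065–6972185 on the plus strand, hold the word GAGAGA on the minus strand at a pair of places, in capitals as TCTCTC.
summit near mir-5549: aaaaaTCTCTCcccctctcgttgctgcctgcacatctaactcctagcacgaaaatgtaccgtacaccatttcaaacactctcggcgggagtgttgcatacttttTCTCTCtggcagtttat

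Of the 11 peaks, 5 had a protein-coding start within 1000 bp of the summit, against 59.6% of all conservative summits. These were the peaks of mir-1824, mir-8205, mir-354, mir-5549 and mir-392, and in all 5 the start was within 200 bp. A tRNA, snoRNA, snRNA or rRNA gene lay within 100 bp of 1 of the 11, that of mir-4923a and mir-4921, against 26.8% of all conservative summits. The other 5 peaks, those of mir-2218b, mir-62, mir-42 to mir-44 and the pair at mir-55b, had neither. With summits near protein-coding starts set aside, 8 genes kept a conservative summit, a count chosen after the data were seen. Whether these summits belong to the microRNA gene or to the neighbouring gene was not tested.

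Among the peaks with a protein-coding start nearby, mir-1824 lies in an intron of Y87G2A.18 on the opposite strand, and its summit was 329 bp downstream of the hairpin and 86 bp from that gene's start. The signal value was 96.4 series-wide, 46.4 in replicate 1 and 51.2 in replicate 2. The hairpin of mir-8205 lies in an intron of unc-59, a septin gene of cell division, and its summit, with 76.7 series-wide, was 750 bp upstream and 142 bp from the unc-59 start. The hairpin of mir-354 overlaps a coding exon of rps-20, a ribosomal protein gene, and its summit, with 89.3, was 835 bp upstream and 174 bp from the start of ekl-4. The summit of mir-392, with 83.7, was 975 bp downstream and 134 bp from the start of bra-1, and mir-392 was the gene just inside the limit of 1000 bp. The gene just outside was mir-8190, with its nearest conservative summit at 1074 bp, followed by mir-4923b at 1178 bp.

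Among the peaks with neither, mir-2218b had the highest signal value, 98.2 series-wide, with 28.9 in replicate 1 and 67.8 in replicate 2, and its summit was 276 bp upstream. It passed in the own list of replicate 2 and not in that of replicate 1. The summit of mir-62, which lies in an intron of ugt-50 on the same strand, was 660 bp downstream of the hairpin and still in an intron of ugt-50, with 66.4 series-wide, 34.0 in replicate 1 and 41.3 in replicate 2. In the other series-wide list mir-62 had 3 summits within 1000 bp. The gene mir-55b lies on the strand opposite mir-55 in the mir-54 to mir-56 cluster and is kept here since it is not one of the 6 genes left out. Its 2 conservative summits, 462 and 261 bp upstream, had 64.8 and 17.6 and lay in an intron of F09A5.3. Without mir-55b the count was 12 genes.

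**Figure D1:**
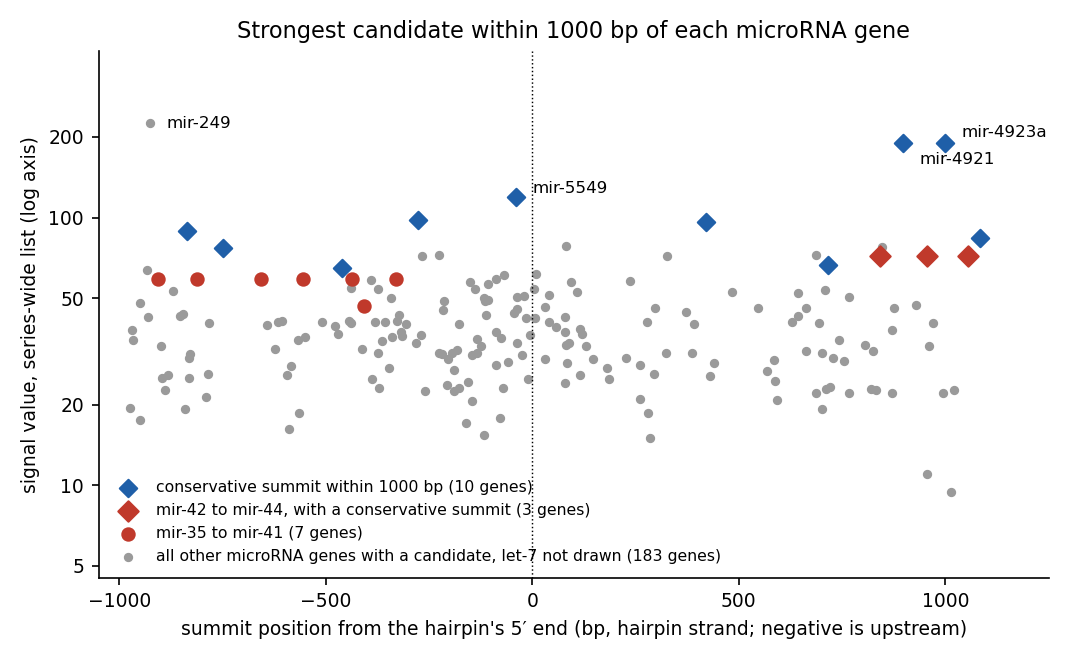
Position (x, bp from the hairpin's 5′ end on the hairpin's strand, negative upstream) and signal value (y, log axis) of the strongest series-wide candidate within 1000 bp of each microRNA gene. Blue and red diamonds are genes with a conservative summit, red circles mir-35 to mir-41 and grey dots the other 183 genes drawn. The diamonds lie on both sides of the hairpin, and mir-249, with 225, is the highest point although it is not in the conservative list.

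Across all genes, a candidate of any strength was present within 1000 bp of 204 of the 254 (80.3%). The share was 69.6% of protein-coding starts and 70.5% of genome windows, so most places in the genome had one. The strongest candidate lay upstream of the hairpin in 116 genes, inside it in 11 and downstream in 77. Within 500 bp, 77 lay upstream and 38 downstream, and farther out 39 lay on each side. The upstream excess was therefore a feature of the nearer candidates, and among genes with a candidate in the top 5% of the list the split was 23 upstream, 3 inside and 14 downstream. These are counts of genes, and genes of a cluster can share a candidate. No such split is given for other genes, so it has no background. The 40 genes in the top 5% rest on 29 distinct candidates.

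As a group, the microRNA genes stood beside stronger candidates than protein-coding starts or genome windows. The median percentile of the strongest series-wide candidate was 65.0 over the microRNA genes, against 50.6 over protein-coding starts and 50.2 over 100275 genome windows, with genes that had no candidate placed at 0. In replicate 1 the medians were 30.1 for microRNA genes, 20.3 for starts and 18.9 for windows, and in replicate 2 they were 52.8 for microRNA genes, 27.3 for starts and 25.8 for windows. The order was the same in both replicates, with starts and windows close together and the microRNA genes higher. A candidate in the top 5% of the series-wide list was near 40 of the 254 genes (15.7%), against 9.22% of starts and 6.41% of windows, and 13 of the 40 were those with a conservative summit. The 40 genes lie at 29 loci. No read counts are given in the lists, so the depth behind these ranks is unknown.

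**Figure D2:**
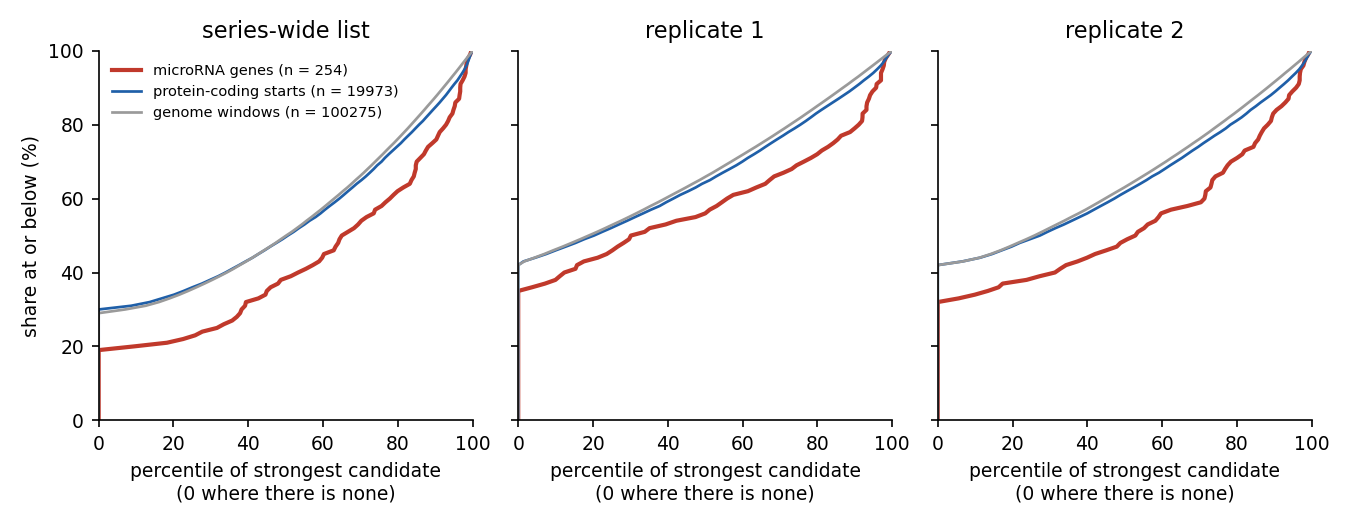
Cumulative share (y, %) of microRNA genes (red, n = 254), protein-coding starts (blue, n = 19973) and genome windows (grey, n = 100275) by the percentile of their strongest candidate within 1000 bp (x, 0 where there is none), in the series-wide list and in each replicate. Over most of its length the red curve runs below and to the right of the others in all 3 panels, with medians of 65.0, 30.1 and 52.8, and near the top it meets or crosses the blue curve.

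Among the microRNA genes, those inside a protein-coding gene had higher median percentiles than those outside. The 103 microRNA genes inside a protein-coding gene, 74 on its strand and 29 on the opposite strand, had a median percentile of 78.0, against 59.2 for the 151 outside. In replicate 1 these medians were 66.8 inside and 12.2 outside, and in replicate 2 they were 74.6 inside and 36.9 outside. Genome windows were not split in this way, so whether the difference is particular to microRNA genes was not tested. The 103 genes are not separate, since mir-35 to mir-41 share a locus, as do the genes of the mir-64 cluster. Conservative summits did not follow this split, since 5 of the 103 (inside) and 8 of the 151 (outside) had one. By chromosome, the X held 5 of the 13 genes among its 71, chromosome I held 4 of 33, chromosome II held 3 of 49 and chromosome III held 1 of 27, while none of the 47 on chromosome IV or the 27 on chromosome V had a conservative summit. The share of genome windows near a summit was 2.49% on the X, 2.72% on I, 2.17% on II, 2.72% on III, 1.92% on IV and 1.5% on V, and the counts of genes are too few to order the chromosomes.

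Signals in the replicates were related only in part. A candidate was present in both replicates near 133 genes and in neither near 52, and over the 133 genes, which share clusters and control, the Spearman rho of the percentiles was 0.515, given as a description. In replicate 1 a candidate was near 64.6% of microRNA genes, 57.4% of protein-coding starts and 57.6% of genome windows. In replicate 2 these shares were 67.3%, 57.6% and 57.5%. Presence in both replicates is not given for starts or windows. A candidate in the top 5% of each replicate, which need not be the same one, was near 16 genes at 10 loci. These were 6.30% of the 254 genes and 4.61% of the 217 loci, against 3.97% of protein-coding starts and 2.11% of genome windows. The 16 genes were mir-35 to mir-40, mir-249 and 9 of the 13 genes with a conservative summit, all but mir-8205, mir-42, mir-43 and mir-44. Of these, mir-35 to mir-40 lie at 1 locus, and their strongest candidates had different summits in the replicates.

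The early embryonic genes had high-ranking candidates, most of which were not in the conservative list. A conservative summit lay within 1000 bp of 3 of the 10 early genes, all at 1 of the 2 loci, and of 10 of the other 244 genes (4.10%). The median percentile of the strongest series-wide candidate was 96.7 over the early genes, with a range of 91.3 to 98.1, and 64.0 over the others. In replicate 1 it was 97.0 for the early genes and 28.2 for the others, and in replicate 2 it was 96.8 and 48.8. The early genes were high in both replicates, but they share 2 loci, so these 10 values rest on few separate candidates. In the top 5% of both replicates were 6 of the 10 early genes and 10 of the 244 others.

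The larger locus, mir-35 to mir-41 (II:11537608–11538404, plus strand), lies in an intron of Y62F5A.9, which is transcribed on the opposite strand. The strongest series-wide candidate for mir-35 to mir-40 was at II:11537149–11537404, with its summit 331 bp upstream of mir-35, a signal value of 58.9 and an irreproducible discovery rate (IDR) of 0.440, so it did not pass. A second candidate, 293 bp past the 5′ end of mir-35 and thus within the cluster, had 46.7 and an IDR of 0.0619, and it was the strongest one within reach of mir-41. In the other series-wide list the order of the IDRs was reversed. It was 0.0506 for the upstream candidate and 0.380 for the one within the cluster, and neither passed there. The replicates differed in which of these candidates was stronger. Replicate 1 had 17.5 at the upstream candidate and 32.4 within the cluster. Replicate 2 had 44.8 at the upstream candidate and 28.6 within the cluster. The high percentiles of mir-35 to mir-40 in both replicates therefore came from different summits.

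No conservative summit lay within 1000 bp of mir-35 to mir-41, and the nearest was 2046 bp upstream of mir-35. There were 3 within 5000 bp of the cluster, all upstream of mir-35, and their signal values were 60.5 at 2046 bp, 218 at 2590 bp and 135 at 3009 bp. The peak with 218 was stronger than any conservative peak within 1000 bp of a microRNA gene, of which the highest had 190.

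The smaller locus, mir-42 to mir-44 (II:11889811–11890118, plus strand), held the early genes with a conservative summit. The peak at II:11890738–11890993 had a signal value of 72.0 and an IDR of 0.00388, and its summit lay downstream of the hairpins, 748 bp from mir-44, 859 bp from mir-43 and 961 bp from mir-42. The nearest protein-coding start, that of ZK930.2, was 2557 bp away, and a snoRNA gene, ZK930.15, lay at 170 bp. A candidate of nearly the same strength, 70.1 with an IDR of 0.0271, had its summit inside mir-42, and a further one with 63.0 and an IDR of 0.126 lay 603 bp upstream of it. The 3 candidates were close in strength, and 1 of them passed.

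In the replicates, the downstream peak of mir-42 to mir-44 was not the strongest candidate. Replicate 1 had no candidate at the downstream peak, 22.8 at the hairpin of mir-42 and 24.8 at 543 bp upstream. Replicate 2 had 42.6 at the downstream peak, 45.5 inside mir-42 and 26.6 at 664 bp upstream. None of these passed in an own list, and the downstream peak did not pass in the other series-wide list, where its IDR was 0.363. The conservative call at mir-42 to mir-44 thus appeared in 1 list of 4. The 121 bases around its summit, II:11890806–11890926 on the plus strand, are shown because this is the single conservative peak at an early embryonic locus. They hold none of the 4 words searched, although GAGAGA lies within 100 bp of the summit, outside the stretch shown.
summit near mir-44: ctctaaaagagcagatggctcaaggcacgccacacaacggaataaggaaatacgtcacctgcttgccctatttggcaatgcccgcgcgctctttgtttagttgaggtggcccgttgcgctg

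**Figure D3:**
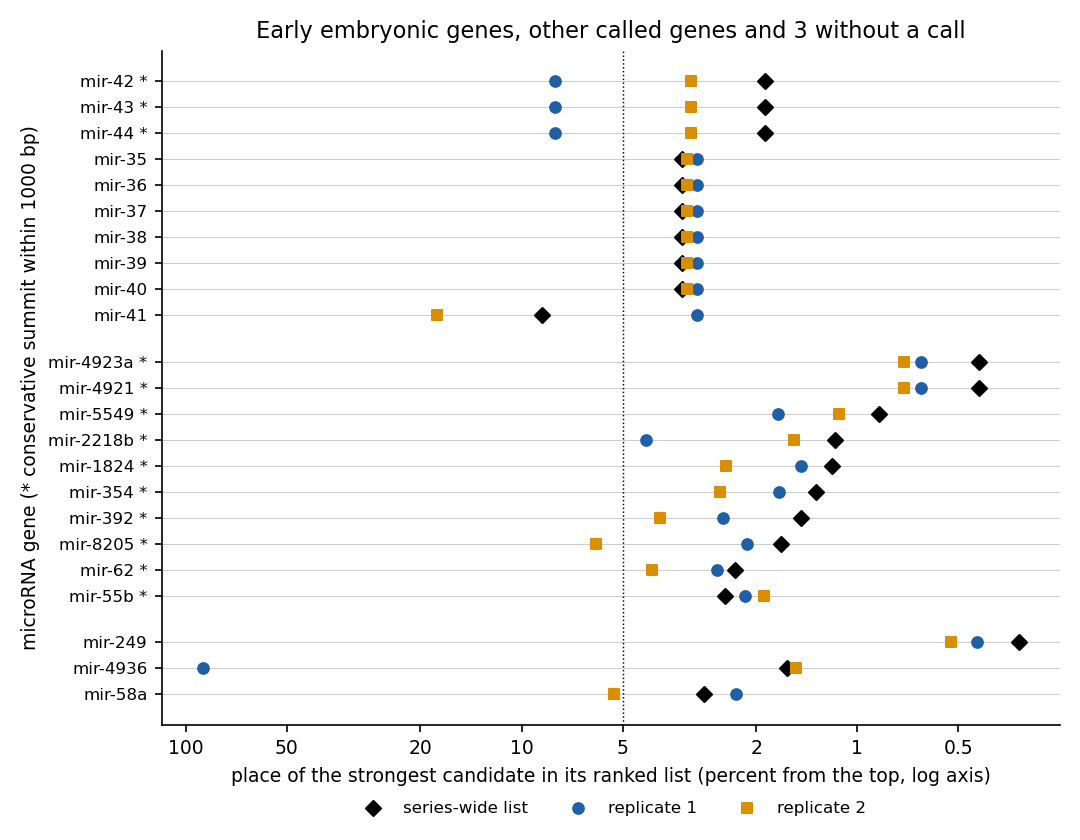
Place of the strongest candidate within 1000 bp in its ranked list (x, percent from the top, log axis; dotted line at 5%) for each early embryonic gene, each other gene with a conservative summit (asterisks) and mir-249, mir-4936 and mir-58a. Diamonds are the series-wide list, circles replicate 1 and squares replicate 2, whose strongest candidates can be different ones. All 3 lists are within the top 5% for mir-35 to mir-40, while replicate 1 lies outside it for mir-42 to mir-44 and far outside it for mir-4936.

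In the series-wide list, the medians of the other lists of microRNA genes fell between those of the early genes and the genes in no list. Median percentiles in the series-wide list were 85.0 for the mir-72 family (3 genes), 84.8 for the mir-64 cluster (4 genes at 1 locus), 82.7 for tissue microRNAs (15 genes), 78.9 for heterochronic genes (9 genes) and 77.7 for the bantam family (8 genes), against 59.5 for the 205 genes in no list. None of these 39 listed genes had a conservative summit, against 5.12% of all 254, a share at which few would be called among 39. The replicates disagreed for some, since the median of the mir-72 family was 7.16 in replicate 1 and 84.4 in replicate 2, and that of the heterochronic genes was 9.86 in replicate 1 and 59.7 in replicate 2. The genes in no list had 25.3 in replicate 1, above both of these, and 38.5 in replicate 2.

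**Figure D4:**
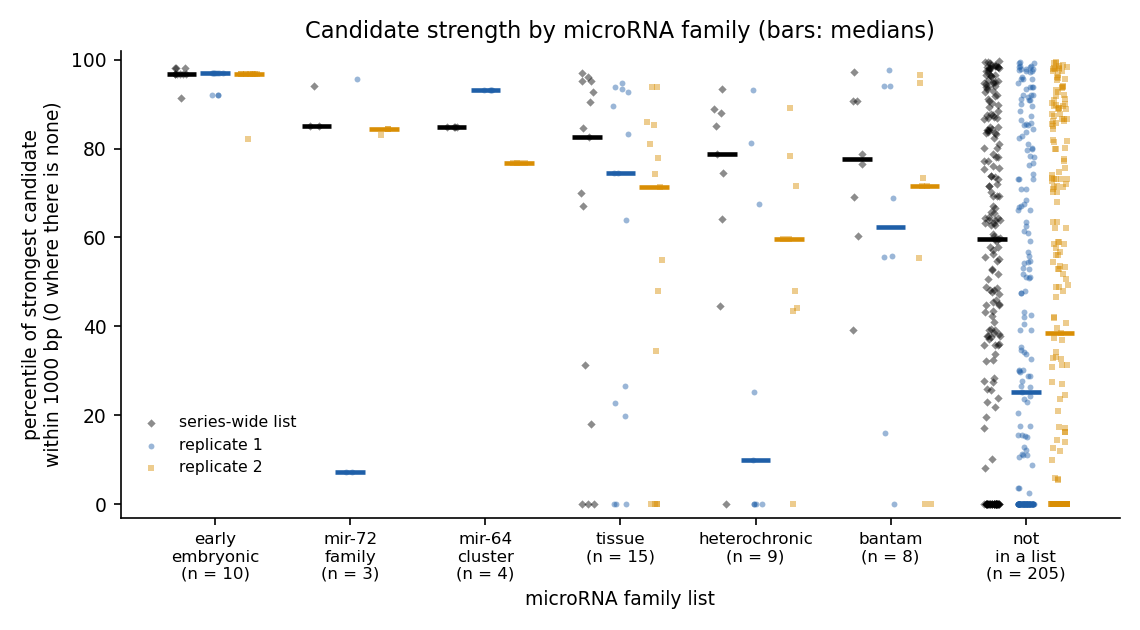
Percentile of the strongest candidate within 1000 bp (y, 0 where there is none) for every microRNA gene by family list (x), in the series-wide list (black), replicate 1 (blue) and replicate 2 (orange). Points are genes and bars medians. The early embryonic genes lie between 91.3 and 98.1 in the series-wide list and rest on 3 candidates at 2 loci, and the 4 genes of the mir-64 cluster share 1 locus.

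Among the heterochronic genes, which time larval development, lin-4 had the strongest candidate, with a signal value of 49.9 series-wide (percentile 93.4) at 341 bp upstream. The strongest candidates of the replicates had 17.6 at 325 bp in replicate 1 and 32.2 at 456 bp in replicate 2. The let-7 family members mir-84, mir-241 and mir-48 had 44.1, 43.2 and 41.0 series-wide, at percentiles 89.0, 88.0 and 85.1, and mir-48 had no candidate in replicate 1. The annotated let-7 gene is a primary transcript of 1732 bp, longer than any other of the 254, and its strongest candidate had 24.8 (percentile 44.6). The value of mir-237, a relative of lin-4, was 31.1 (percentile 64.2), with no candidate in either replicate.

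Among the tissue microRNAs, mir-124 was highest, with 60.8 series-wide (percentile 97.0, IDR 0.0668) at 69 bp upstream. The strongest candidates of the replicates had 23.3 at 74 bp upstream in replicate 1 and 30.3 inside the hairpin in replicate 2. The values were 48.7 (percentile 92.8) for mir-57, a microRNA of posterior cells, 33.3 (70.1) for mir-1, 32.2 (67.1) for mir-71, which is known for its part in lifespan, and 20.6 (31.4) for mir-228. None of the 5 passed in any list, and mir-1 had no candidate in replicate 2.

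Genes that share a seed with mir-43, mir-44 or mir-62 differed in the strength of their candidates. Of the 254 genes, 250 had an annotated mature arm, and 42 of 365 distinct seeds were shared by several genes. The seed of mir-43, AUCACAG, is also that of mir-2, mir-250 and mir-797, whose strongest candidates were at percentiles 90.5, 95.3 and 0, with none for mir-797. The seed of mir-44, GACUAGA, is also that of mir-45, mir-61 and mir-247, at 84.6, 95.3 and 0, and mir-250 and mir-61 share 1 locus, as do mir-797 and mir-247. The seed of mir-62, GAUAUGU, is also that of mir-90 and mir-50, at 91.8 and 77.1.

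The gene with the strongest candidate of all was mir-249, which had no summit within 1000 bp in the conservative list or in any other thresholded list. Its candidate at X:3007333–3007588 had a signal value of 225 series-wide, 94.8 in replicate 1 and 137 in replicate 2, at percentiles 99.7, 99.6 and 99.5, and its IDR was 1.2e-05. The summit lay 925 bp upstream of the hairpin (X:3006440–3006536, minus strand) and 2029 bp from the nearest protein-coding start. It was 1 of 204 candidates at or below the highest IDR in the conservative list, 0.00999, that the list leaves out. The value is above those of all 11 conservative peaks near microRNA genes, and it was in the top 5% of both replicates.

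Of the genes without a conservative summit, 5 had a summit in another thresholded list, namely mir-58a, mir-4936, mir-8186-1, mir-8186-2 and mir-5550. All 5 passed in the other series-wide list, and all but mir-5550 also passed in the own list of replicate 2. The nearest protein-coding start to the series-wide summit was that of T07A9.12 for mir-5550, at 258 bp, and that of gmeb-1 for the mir-8186 pair, at 573 bp. It was that of nduf-9 for mir-4936, at 658 bp, and that of Y67D8A.2 for mir-58a, at 10822 bp. For mir-4936, the summit was inside the hairpin and the signal value was 78.4 series-wide (IDR 0.812), 10.6 in replicate 1 and 68.4 in replicate 2. Replicate 1 was thus at percentile 11.2 where replicate 2 was at 98.5. For mir-58a, a bantam family microRNA abundant in the worm, the series-wide summit was inside the hairpin, with 61.6 (IDR 0.810). The strongest candidates of the replicates were at other places, 302 bp downstream with 36.2 in replicate 1 and 160 bp upstream with 38.4 in replicate 2, and the summit of replicate 2 inside the hairpin had 9.59. The overlapping pair mir-8186-1 and mir-8186-2, on opposite strands, had 71.8 series-wide, 18.6 in replicate 1 and 53.9 in replicate 2. For mir-5550, in an intron of the kinase gene kgb-1 on the opposite strand, the candidate downstream had 77.4 series-wide at 737 bp and 59.4 in replicate 2 at 749 bp, while the strongest of replicate 1, with 26.3, was inside the hairpin.

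The remaining strong candidates outside the conservative list were those of mir-253 and mir-257, each with 72.2 series-wide, and mir-353 with 63.5. The series-wide candidate of mir-253 lay 225 bp upstream, and its summit was 81 bp from the start of F44E7.5. It was at percentile 98.0 in replicate 2, while the strongest of replicate 1 was a different one, 317 bp downstream at 82.7. For mir-257 the candidate was downstream in both replicates, at percentile 97.8 in replicate 1 and 84.4 in replicate 2. The candidate of mir-353, whose hairpin lies in an intron of the ribosomal protein gene rpl-24.1, was 173 bp from that gene's start, had an IDR of 0.0125, near the limit of the list, and was present in replicate 2 alone.

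A pair of words from T-box binding sites, AGGTGTGA and GGTGTG, and the words GAGAGA and GGGCGG were looked for within 100 bp of the 11 conservative summits near microRNA genes, on both strands. The word AGGTGTGA was in none of the 11, against 0.361% of all 1107 summits. GGTGTG, which lies within it, was in 1, the stronger peak of mir-55b, against 7.14% of all. The word GAGAGA was in 5, against 25.7%, and GGGCGG in none, against 12.1%. The 5 with GAGAGA were the peaks of mir-42 to mir-44, mir-5549, mir-4923a with mir-4921, mir-392 and the weaker peak of mir-55b. A match describes the letters of a window and shows no binding site, and these counts were not tested.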

How the data were processed

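The authors' peak lists were used as deposited, for 2 biological replicates of 1 group, in ce11 coordinates per the labels, whose chromosomes are those of WBcel235. Which aligner and peak caller were run is not given in the sources used here. A control experiment and a further file named beside the lists were not used here. Each deposited list gives a score (the authors' IDR scaled to at most 1000), a signal value from their peak caller, whose scale differs between lists, and a summit offset. The deposited ranked lists also give the −log10 of the IDR, which was turned back to IDR. The lists hold no read counts, so the depth is unknown, and 8 per-sample columns that name no replicate were not used.

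Of 66355 ranked candidates, 1107 are in the conservative list. The second series-wide list has 1042 of 41925, replicate 1 has 538 of 39578 and replicate 2 has 817 of 44219. A summit is the peak start plus its offset, and distance is 0 inside the hairpin, otherwise to its nearer end. Background windows had the median hairpin length of 95 bp and tiled the genome end to end for counts, and started every 1000 bp for percentiles. Names were matched by position to RefSeq symbols for 253 genes, among them let-7. Named genes followed a rule: every gene with a conservative summit, those with a summit in another thresholded list, the 10 highest signal values outside the conservative list, mir-35 to mir-44, 11 well-studied genes whatever their values, and those nearest the distance limit. Genes that share a seed with mir-43, mir-44 or mir-62, and flanking conservative peaks of mir-35, were added after values were seen. The members, lists and rules were chosen with earlier results of these data known. Counting was tested on simulated data with planted peaks. Python 3.11.15, pandas 2.3.3, numpy 2.4.6, scipy 1.17.1 and matplotlib 3.10.9 were used.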

Additional observations from a re-analysis of the deposited data

How the results depend on the processing

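No paired analysis was possible because there was 1 group. The counts changed with the overlap rule, the distance and the list. With 500 bp, 4 genes at 4 loci had a conservative summit and 0 early genes, and with 2000 bp 26 genes at 18 loci. Shares of genome windows and protein-coding starts are given at 1000 bp alone. The counts at 500 and 2000 bp therefore have no background, and whether they exceed one was not tested. Taking each replicate's own list in place of the list of both gave 5 to 8 genes at 4 to 6 loci, and 0 to 0 early genes. Where the peak had to overlap the hairpin, 1 gene at 1 locus was left, and 0 early genes. In the other series-wide list 0 early genes had a summit. Alternatives chosen after seeing the data left 8 genes without summits near protein-coding starts, and 6 without those and summits at other small RNA genes. The median percentile of all genes was 82.2 with 2000 bp, 46.2 in the other series-wide list and 30.1 to 52.8 in single replicates. The value at 2000 bp likewise has no median of starts or windows beside it. The early genes exceeded the others by 32.6 percentile points, by 17.2 with 2000 bp, by 49.6 in the other list and by 47.9 to 68.8 in single replicates, and the direction held in every alternative run. The cause of these shifts was not tested. With 2 replicates, 2 loci of early genes and no read counts, none of these values has an error of its own.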
